A study of Homo sapiens with 21 samples.

Results

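The genes that make, cut and bind hyaluronan, the large sugar polymer of the extracellular matrix, were followed across 7 groups of the human melanoma line A375. The members were chosen by name: the synthases HAS1, HAS2 and HAS3, the hyaluronidases HYAL1, HYAL2 and HYAL3, the depolymerases CEMIP and CEMIP2, and the receptors CD44 and HMMR. These are 10 of the 58870 genes in the deposited files, and each of the 10 symbols matched exactly 1 gene identifier. The values that stand out were those of HAS2, which rose 41.1-fold and 20.2-fold in the SOX10 knockout clones and 13.5-fold and 24.9-fold in the drug-tolerant lines without inhibitors, and of CEMIP, which fell in 1 clone and rose in the same inhibitor-free lines. All 10 members passed the filter on low values.

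Hyaluronan is built at the plasma membrane by the synthases, which join UDP-glucuronic acid and UDP-N-acetylglucosamine and push the growing chain out of the cell. HYAL2 and CEMIP cut long chains at or near the cell surface, and HYAL1 finishes the digestion in lysosomes. CD44 is the principal cell-surface receptor for the polymer, and melanoma cells are known both to carry much CD44 and to meet hyaluronan made by themselves and by neighbouring fibroblasts.

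RNA sequencing was done on 21 libraries, 3 in each group. A375, which carries a mutant BRAF, was sequenced as parental cells without inhibitors. The clones gSOX10 #2 and gSOX10 #4 are labelled as A375 cells in which SOX10, a transcription factor of the melanocyte lineage, was knocked out with CRISPR-Cas9 and different guides. Each is a single clone, and no control clone was sequenced. The titles of the gSOX10 #4 libraries carry a clone number that the study's text uses for a knockout clone of another melanoma line, MeWo, so that the origin of this clone, and with it every comparison of gSOX10 #4 with parental A375, rests on the cell line label. Across genes, each gSOX10 #4 library correlated best outside its group with gSOX10 #2 (mean r 0.953 to 0.961). No group here is labelled MeWo, so this correlation cannot settle the origin of the clone. CRT34 and CRT35 are lines grown out of A375 xenografts that tolerated a BRAF inhibitor together with a MEK inhibitor. Each was sequenced after DMSO, the solvent alone, and after Combo, which is 1 µM PLX4720, the BRAF inhibitor, with 35 nM PD0325901, the MEK inhibitor. Both lines are kept in medium with these inhibitors, so the DMSO libraries come from cells taken off them. Parental cells were not sequenced with inhibitors, and the labels give no time of treatment. The labels do not say whether replicates were separate cultures. For the 2 A375 clones a figure legend of the study speaks of 3 independent replicates per clone, without saying what was repeated. The p-values thus measure the spread between these libraries, which may be technical.

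SOX10 itself was checked first. Parental libraries had it at 10348, 11877 and 12822, the gSOX10 #2 libraries at 392 to 504 and the gSOX10 #4 libraries at 456 to 517, in the deposited normalized units used throughout, and it fell by 4.69 ± 0.47 and 4.58 ± 0.47 on the log2 scale (limma adjusted p = 3.36e-07 and 4.67e-07). In CRT34 and CRT35 it was listed at 6.32 in 1 DMSO library, at 0.974 in another and at 0 in the other 10. Markers of fibroblasts (5 genes, among them the collagen gene COL1A2) moved with the CRT lines: their summed value was 475 to 613 in parental libraries, 1132 to 2566 in the clones, and 70178 to 380827 in the CRT libraries, with none of the 5 at 0 in any group. All 5 were called higher than in parental cells in each CRT group. In gSOX10 #2, LUM, PDGFRA, COL1A1 and COL1A2 were called higher, but in gSOX10 #4 only LUM and PDGFRA. COL1A2 rose by 3.01 in gSOX10 #2 and differed by -4.60 in gSOX10 #4 against gSOX10 #2, a call. The part of these fibroblast markers in the results for CRT34 and CRT35 was not tested. In bulk RNA, fewer cells of a type and less RNA per cell cannot be told apart. Of the melanocytic markers, MLANA and TYR were listed at 0 in all 3 parental libraries. Beside SOX10, S100B was called lower than in parental cells in all 6 groups. PMEL was called lower in gSOX10 #4 and CRT34 DMSO. TYRP1 was called lower in gSOX10 #4 but higher in CRT34 DMSO and both Combo groups, and MITF was called higher in both Combo groups. Summed leukocyte markers were 315 to 472 in parental libraries and 5.02 to 72.3 in the others. That sum follows LYZ, which was called lower in all 6 groups, whereas PTPRC and ITGAM were called higher in CRT34 Combo, CRT35 Combo and CRT35 DMSO, ITGAM also in gSOX10 #4, and both between Combo and DMSO in CRT34, at values of at most 44.5 and 30.6 in any library. Their part in the results was not tested. Summed endothelial markers were at 91.8 to 623 and keratinocyte markers at 1113 to 2119 over all libraries. These sums hide calls that go opposite ways. Against parental cells, PECAM1 was called higher and KDR lower in all 6 groups. CDH5 was called higher in both CRT34 groups and lower in gSOX10 #4, and VWF higher in gSOX10 #2 and lower in CRT34 DMSO. KRT14 was called lower in all 6 groups, and KRT5 in gSOX10 #4, both Combo groups and CRT35 DMSO. Their part in the results was not tested either. The summed values ran from 59.2 M to 68.3 M per library, and the step between low values put the depth at 27.2 M for CRT35 DMSO replicate 1 and 52.5 M to 75.6 M for the others. CRT34 Combo replicate 3 correlated better across genes with the CRT34 DMSO libraries (mean r 0.969) than with its own group (0.964). Results are also given without these 2 libraries where that changed a call or moved a value by over 1.5 times.

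The upstream sequence is shown for HAS1, HAS3 and CEMIP, 3 of the members with called changes, so that the letters before their start sites can be read beside their values. The bases come from RefSeq on GRCh38.p14, run 5′ to 3′ in the direction of the gene and end next to the RefSeq start site, except that CEMIP is printed only as far as position -25, where the first base before the start is -1. In the gene coordinates given below, HAS3 starts at 69105653, so its window lies inside the annotated gene. CEMIP starts there at 80779343, so the last bases shown for it also lie inside the annotated gene. Capitals mark letters of the motifs that were searched, on both strands. In HAS1 they are the letters of the cyclic AMP element (-69 to -62) and the CHR letters of cell-cycle genes on the reverse strand (-30 to -25). In HAS3 they are SOX letters on the reverse strand (-182 to -177) and an E-box (-66 to -61). In CEMIP they are the letters of a TATA box (-30 to -25).
HAS1 (chr19:51723992-51724241, minus strand): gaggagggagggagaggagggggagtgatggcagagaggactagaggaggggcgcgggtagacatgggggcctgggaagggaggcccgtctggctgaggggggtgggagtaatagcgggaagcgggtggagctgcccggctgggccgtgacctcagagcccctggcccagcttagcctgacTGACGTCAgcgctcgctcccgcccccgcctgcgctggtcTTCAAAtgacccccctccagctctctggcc
HAS3 (chr16:69107290-69107539, plus strand): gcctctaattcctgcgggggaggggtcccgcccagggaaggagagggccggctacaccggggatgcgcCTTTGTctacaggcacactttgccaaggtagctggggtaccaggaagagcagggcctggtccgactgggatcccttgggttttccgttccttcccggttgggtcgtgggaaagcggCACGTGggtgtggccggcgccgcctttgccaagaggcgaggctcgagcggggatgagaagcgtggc
CEMIP (chr15:80779120-80779345, plus strand): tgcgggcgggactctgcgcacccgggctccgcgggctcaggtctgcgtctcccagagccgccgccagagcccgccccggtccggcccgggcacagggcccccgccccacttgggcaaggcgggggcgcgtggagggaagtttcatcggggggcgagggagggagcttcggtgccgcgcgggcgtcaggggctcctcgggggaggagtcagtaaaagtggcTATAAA

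These letters are a description and not sites. The share that holds each motif was taken over 35116 RefSeq promoter windows of 250 upstream bases. Of the motifs from a fixed list, the AP-1 letters (TGANTCA) stood in 6.57% of windows, the TEAD letters (CATTCC) in 11.9%, the SOX letters (ACAANG) in 30.9% and the E-box (CACGTG) in 6.34%. The others were added after the sequences had been read. Of these, the TATA letters (TATAAA) stood in 10.7%, the CHR letters (TTTGAA) in 13.3%, the CCAAT letters in 32% and the cyclic AMP element (TGACGTCA) in 1.65%. The AP-1 letters were in none of the windows of the 9 members that matched the RefSeq table. HMMR held the CHR letters 2 times and CCAAT letters 5 times, a pair of the latter overlapping, and of 11 other mitosis genes with a window 7 held the CHR letters and 10 held CCAAT. For HAS2 no sequence is printed.

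The plot of every member in every library shows the whole set at once, on a log scale. By group mean per kilobase of canonical transcript, CD44 had the highest level of the members in each group (10308 in parental cells, next to 3329 for CEMIP2), and HAS1 or HYAL1 the lowest.

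**Figure D1:**
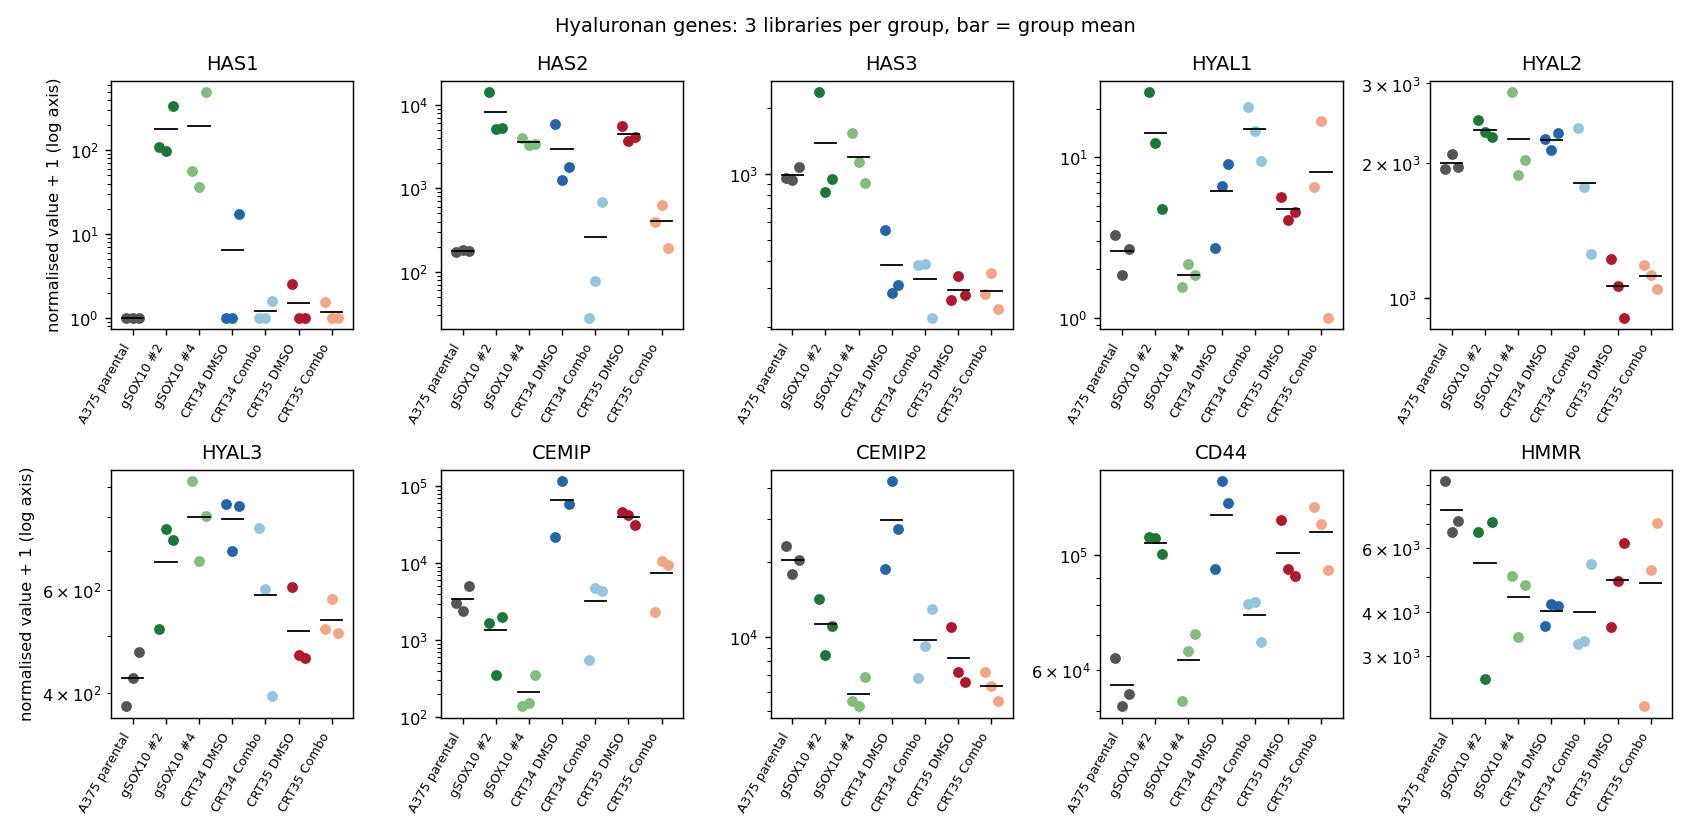
Normalized value of each of the 10 members in each of the 21 libraries, 1 panel per gene, as value + 1 on a log axis whose range differs between panels. Points are libraries and short bars are the means of the 3 libraries of a group. HAS2 is high in both gSOX10 clones and both DMSO groups and low in parental and Combo libraries, and CEMIP is highest in the DMSO groups.

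HAS2 (chromosome 8, 121612116 to 121641440, minus strand, GRCh38, 4 exons) makes very long hyaluronan chains and is the synthase best known from development and wound repair. Parental libraries held 173, 181 and 174. Those of gSOX10 #2 held 14166, 5144 and 5311, and those of gSOX10 #4 held 4057, 3316 and 3401. All 6 knockout libraries were above all 3 parental ones, and gSOX10 #2 above gSOX10 #4 without overlap. HAS2 therefore rose by 5.36 ± 0.78 on the log2 scale in gSOX10 #2 (41.1-fold, limma adjusted p = 2.61e-05) and by 4.34 ± 0.78 in gSOX10 #4 (20.2-fold, adjusted p = 0.000263), where ± is the standard error (SE) of the fit. Between the clones the difference was -1.03 (adjusted p = 0.391), with a 95% interval from -2.66 to 0.61.

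In the drug-tolerant lines the level of HAS2 went with the inhibitors. CRT34 DMSO libraries held 5916, 1276 and 1811, and CRT34 Combo libraries 27.1, 76.0 and 677. CRT35 DMSO libraries held 5613, 3716 and 4101, and CRT35 Combo libraries 399, 634 and 191. The 9 parental and Combo libraries lay between 27.1 and 677 and the other 12 between 1276 and 14166, with no overlap. Against parental cells, HAS2 rose by 3.75 ± 0.78 in CRT34 DMSO (13.5-fold, limma adjusted p = 0.000818) and by 4.64 ± 0.78 in CRT35 DMSO (24.9-fold, adjusted p = 9.56e-05). Without CRT34 DMSO replicate 1, the highest of its group, the first change was 3.10. The Combo groups gave -0.64 (adjusted p = 0.522) in CRT34 and 1.04 (adjusted p = 0.276) in CRT35 against parental cells, and neither is a call. The CRT34 value was 0.37 without CRT34 Combo replicate 1 and -1.93 (adjusted p = 0.0108) without CRT34 Combo replicate 3.

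Combo against DMSO in the same line compares cells with the inhibitors and cells taken off them. An effect of the inhibitors and an effect of their withdrawal cannot be told apart. HAS2 fell by 4.40 ± 0.78 on the log2 scale in CRT34 (21.1-fold, limma adjusted p = 0.00198) and by 3.59 ± 0.78 in CRT35 (12.1-fold, adjusted p = 0.0233). The CRT34 change was -3.39 without CRT34 Combo replicate 1, -3.74 without CRT34 DMSO replicate 1 and -5.69 without CRT34 Combo replicate 3, the library that stands close to the DMSO group, and it stayed a call each time. Fitted on the 6 CRT34 libraries alone, its adjusted p was 0.167. The CRT35 call was lost when CRT35 DMSO replicate 1, 2 or 3 or CRT35 Combo replicate 1 or 3 was left out, with adjusted p from 0.0708 to 0.0927, and with the replicate number as a block (adjusted p = 0.0528). The difference between the lines in this drug effect was 0.80 ± 1.10 (adjusted p = 0.959).
Ordered by group mean, HAS2 was lowest in parental cells (176 ± 4.58, SD, n = 3), followed by CRT34 Combo (259.9 ± 362), CRT35 Combo (408 ± 222), CRT34 DMSO (3000.9 ± 2539), gSOX10 #4 (3592 ± 406), CRT35 DMSO (4477 ± 1003) and gSOX10 #2 (8207 ± 5161). Neighbouring groups overlapped except at the gap between CRT35 Combo and CRT34 DMSO. HAS2-AS1, a noncoding RNA on the opposite strand that shares exonic bases with HAS2, was at 5.15 to 7.76 in parental libraries, 63.3 to 127 in gSOX10 #2 and 85.1 to 126 in gSOX10 #4. It rose by 3.63 ± 0.44 and 3.81 ± 0.44 in the clones (limma adjusted p = 3.66e-06 and 2.21e-06). HAS2-AS1 also rose by 1.72 in CRT34 DMSO, 1.58 in CRT35 DMSO and 1.17 in CRT35 Combo (adjusted p = 0.00434, 0.00749 and 0.0335), the last a group where HAS2 was not called. Quantile normalization lost these 3 calls, and the CRT35 Combo call was lost in 7 of 29 alternatives, among them leaving out parental replicate 1 or 2 or CRT35 Combo replicate 1 or 2. It fell by 2.69 ± 0.44 with inhibitors in CRT34 (adjusted p = 0.00108, though not a call on the CRT34 libraries alone). In CRT35 it was not called with inhibitors (adjusted p = 0.695). Different library kits are named in the labels and in the methods, so it is not settled whether strand was used in counting, and reads over the shared bases cannot be told apart.

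HAS1 (chromosome 19, 51713112 to 51723991, minus strand, 5 exons) is the least active of the synthases. It was listed at 0 in all 3 parental libraries, at 107, 97.0 and 334 in gSOX10 #2 and at 55.1, 34.9 and 489 in gSOX10 #4. In the CRT lines 8 of 12 libraries listed it at 0, and the highest of the others was 16.1 in CRT34 DMSO replicate 3. Each knockout library was above every other library, and HAS1 rose in both clones (limma adjusted p = 9.89e-06 in gSOX10 #2 and 3.08e-05 in gSOX10 #4). No fold is given against a group listed at 0, and HAS1 entered the test only through its values in the clones.

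HAS3 (chromosome 16, 69105653 to 69118719, plus strand, 4 exons), which makes shorter chains, was the leading synthase of parental cells. Values of 961, 936 and 1074 were found in parental libraries, and in the clones 824 to 2361 in gSOX10 #2 and 911 to 1541 in gSOX10 #4, overlapping them. The 12 CRT libraries were all lower, at 218 to 384 in CRT34 Combo, 283 to 555 in CRT34 DMSO, 241 to 352 in CRT35 Combo and 265 to 338 in CRT35 DMSO. HAS3 fell by 1.63, 1.43, 1.78 and 1.76 on the log2 scale in that order (each ± 0.34), with limma adjusted p of 0.000696, 0.00237, 0.000255 and 0.00038. It shares 365 exonic bases with the antisense genes CHTF8 and DERPC, which had means of 4694 and 2536 over the 21 libraries. Whether strand was used in counting is not settled, and the part of these genes in the HAS3 values was not tested. Unlike HAS2, HAS3 was not called between Combo and DMSO in either line (adjusted p = 0.798 in CRT34 and 0.986 in CRT35).

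Levels of different genes were compared per kilobase of the canonical transcript. On that scale HAS3 was 85.0% ± 1.13 (SD, n = 3) of the 3 synthases in parental cells and HAS2 made up the rest. HAS2 was 81.4% ± 4.29 in gSOX10 #2, 69.3% ± 4.68 in gSOX10 #4, 85.7% ± 5.05 in CRT34 DMSO and 93.5% ± 1.91 in CRT35 DMSO. In Combo it was 32.7% ± 37.2 in CRT34, with libraries from 6.56% to 75.3%, and 55.5% ± 10.3 in CRT35. The summed synthase level per kilobase was 278 ± 16.9 in parental cells, 2349 ± 1394 in gSOX10 #2, 1224 ± 142 in gSOX10 #4, 802 ± 633 in CRT34 DMSO and 1126 ± 230 in CRT35 DMSO. In Combo the sum was lower than in all parental libraries, at 139.7 ± 62.9 in CRT34 and 166 ± 65.7 in CRT35.

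**Figure D2:**
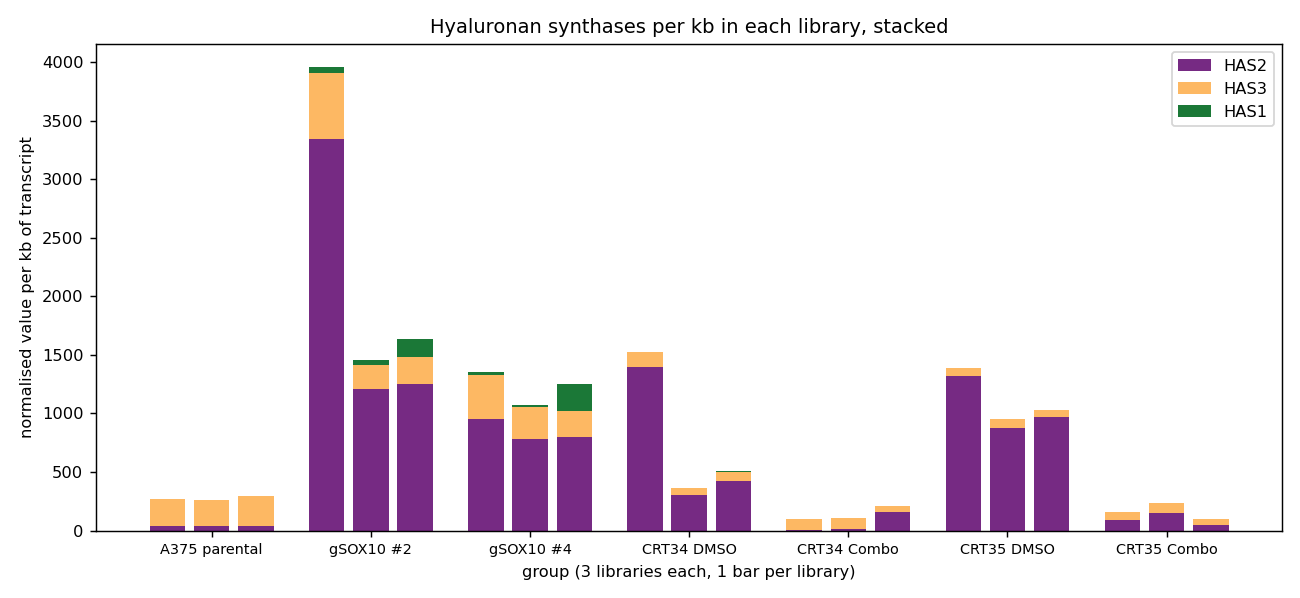
Normalized value per kilobase of canonical transcript of HAS1, HAS2 and HAS3, stacked for each of the 21 libraries from 0. HAS3 makes up most of the parental bars, and HAS2 makes up most of the bars of both clones and both DMSO groups.

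The hyaluronidases lie side by side on chromosome 3 (HYAL3 at 50292831 to 50299405, HYAL1 at 50299890 to 50312381 and HYAL2 at 50317790 to 50322782, all on the minus strand). HYAL2, anchored to the cell surface, was the most abundant of the 3 per kilobase, at 82.4% ± 1.60 of their sum in parental cells and 67.4% in both CRT35 groups. Its parental libraries held 1932, 2093 and 1958, the CRT34 DMSO libraries 2262, 2134 and 2328, and the CRT35 DMSO libraries 1222, 1061 and 902. CRT35 DMSO thus lay below both without overlap. HYAL2 fell in CRT35 DMSO against CRT34 DMSO by 1.09 ± 0.19 (2.13-fold, limma adjusted p = 0.000597), and by 0.98 without CRT35 DMSO replicate 3, which is under the 2-fold limit. Against parental cells it differed by -0.92 (adjusted p = 0.000639) in CRT35 DMSO and by -0.84 (adjusted p = 0.00112) in CRT35 Combo, both short of that limit, though the first was -1.03 without CRT35 DMSO replicate 1. HYAL2 shares 509 exonic bases with TUSC2 on its own strand.

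HYAL3, another member of the family, was at 378, 424 and 469.7 in the parental libraries and was called in none of the 12 comparisons. It differed by 0.64 in gSOX10 #2, 0.91 in gSOX10 #4 and 0.90 in CRT34 DMSO (limma adjusted p = 0.0233, 0.00307 and 0.00284), with each of these groups above all parental libraries. The gSOX10 #4 value was past 2-fold with equal totals (1.01) and without gSOX10 #4 replicate 2 (1.02). HYAL3 shares 232 exonic bases with NAA80 and 43 with IFRD2 on its own strand. HYAL1, the lysosomal enzyme, was near the lower limit of what these libraries resolve, at 0.861 to 2.26 in parental cells, 3.76 to 24.4 in gSOX10 #2 and 8.55 to 19.7 in CRT34 Combo. It passed the filter only through libraries of gSOX10 #2 and of the Combo groups. HYAL1 rose by 2.17 ± 0.79 in gSOX10 #2 (adjusted p = 0.0318) and by 2.49 ± 0.79 in CRT34 Combo (adjusted p = 0.0142), and it was lower in gSOX10 #4 than in gSOX10 #2 by 2.64 ± 0.79 (adjusted p = 0.0221). The gSOX10 #2 call was lost without parental replicate 2 or 3 or gSOX10 #2 replicate 1 or 2, with adjusted p from 0.0629 to 0.145, and with quantile normalization (0.144) and, narrowly, without the filter, and was 0.90 with a pseudocount of 10 and 2.81 without gSOX10 #2 replicate 3. The CRT34 Combo call was lost without parental replicate 2 (adjusted p = 0.0509) or CRT34 Combo replicate 1 (adjusted p = 0.0544), and with quantile normalization (adjusted p = 0.156). The difference between the clones was lost without gSOX10 #2 replicate 1 or 2 or gSOX10 #4 replicate 1, with adjusted p from 0.0598 to 0.109, and with quantile normalization (0.0727), and was -0.99 with a pseudocount of 10 and -3.27 without gSOX10 #2 replicate 3.

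CEMIP (chromosome 15, 80779343 to 80951776, plus strand, 30 exons) binds and depolymerizes hyaluronan outside the classical hyaluronidase family. Its parental values were 3006, 2393 and 5026. Those of gSOX10 #2 held 1686, 350.2 and 2021, and those of gSOX10 #4 held 136, 153 and 349.6, all below parental cells, while the highest gSOX10 #4 library was just under the lowest gSOX10 #2 library. CEMIP fell in gSOX10 #4 by 4.08 ± 0.80 (16.9-fold, limma adjusted p = 0.000569), while the difference in gSOX10 #2 was -1.64 (adjusted p = 0.106). Between the clones the change was -2.44 ± 0.80 (adjusted p = 0.0352). That call was lost without gSOX10 #2 replicate 1 or 3 or gSOX10 #4 replicate 1 or 2, with adjusted p from 0.0955 to 0.146, on the 2 clones alone (0.0906), without the filter (0.0553) and with quantile normalization (0.0531), and was -3.24 without gSOX10 #2 replicate 2.

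The DMSO libraries of the CRT lines held the highest CEMIP values of the series. CRT34 DMSO gave 22253, 117580 and 58610, and CRT35 DMSO gave 45798.5, 42332 and 31153. With Combo the values were 558, 4818 and 4344 in CRT34 and 2317, 10712 and 9451 in CRT35, below every DMSO library of either line. Against parental cells CEMIP rose by 4.02 ± 0.80 in CRT34 DMSO (16.2-fold, limma adjusted p = 0.000555), or 4.65 without CRT34 DMSO replicate 1, and by 3.57 ± 0.80 in CRT35 DMSO (11.9-fold, adjusted p = 0.00142). The Combo groups differed from parental cells by -0.54 and 0.90 (adjusted p = 0.604 and 0.364).
Combo against DMSO, CEMIP fell by 4.56 ± 0.80 in CRT34 (23.6-fold, limma adjusted p = 0.00182). This was -3.55 without CRT34 Combo replicate 1 and -5.19 without CRT34 DMSO replicate 1, a call each time, and adjusted p was 0.114 on the 6 CRT34 libraries alone. In CRT35 the difference was -2.67 ± 0.80 (adjusted p = 0.111), which is not a call although the groups did not overlap. With the replicate number as a block it had an adjusted p of 0.0408, and without CRT34 Combo replicate 1 it had 0.0482. The difference between the lines, 1.89 ± 1.13, had an adjusted p of 0.822. CEMIP shares 224 exonic bases with the antisense gene MESD, which had a mean of 4358 over the 21 libraries and a highest value of 5458. The part of MESD in the CEMIP values was not tested.

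CEMIP2 (chromosome 9, 71683366 to 71816690, minus strand, 24 exons) is the membrane-bound relative of CEMIP. The parental values were 23187, 17918 and 20332, those of gSOX10 #2 were 14210.4, 8405 and 11070, and those of gSOX10 #4 were 5477, 5221 and 6880.2. The 3 groups stood apart in that order. CEMIP2 fell in gSOX10 #4 by 1.81 ± 0.27 (limma adjusted p = 4.64e-05), and differed by -0.89 (adjusted p = 0.0129) in gSOX10 #2 and by -0.92 (adjusted p = 0.0219) between the clones, both under 2-fold. The first passed that limit without gSOX10 #2 replicate 1 (-1.08), and the second without gSOX10 #2 replicate 2 (-1.11) or gSOX10 #4 replicate 3 (-1.04). In the CRT lines it did not follow CEMIP. CRT34 DMSO held 18815, 42534 and 27312, overlapping parental cells, and CRT34 Combo held 6828, 9175 and 12965. CRT35 DMSO held 10897, 7173 and 6558, and CRT35 Combo 7196, 6341 and 5498, all below the parental libraries.
CEMIP2 fell against parental cells by 1.13 ± 0.27 in CRT34 Combo (adjusted p = 0.00244), 1.69 ± 0.27 in CRT35 Combo (adjusted p = 4.64e-05) and 1.35 ± 0.27 in CRT35 DMSO (adjusted p = 0.000583). The CRT34 Combo change was -0.90, under 2-fold, without CRT34 Combo replicate 1, and -0.98 with quantile normalization. CRT35 DMSO was lower than CRT34 DMSO by 1.80 ± 0.27 (adjusted p = 0.000182). With inhibitors CEMIP2 fell by 1.58 ± 0.27 in CRT34 (adjusted p = 0.00161, and 0.119 on the 6 CRT34 libraries alone). In CRT35 it was not called between Combo and DMSO. The drug effects of the lines differed by 1.24 ± 0.39 (adjusted p = 0.426), and by 1.70 (adjusted p = 0.031) when CRT34 Combo replicate 3 and CRT35 DMSO replicate 1 were both left out.
Per kilobase, CEMIP was 12.3% ± 4.17 (SD, n = 3) of the pair in parental cells and 2.84% ± 1.09 in gSOX10 #4. It was 61.3% ± 10.4 in CRT34 DMSO and 80.3% ± 2.67 in CRT35 DMSO, so that by these means the leading member of the pair was the other one. With Combo CEMIP was 19.6% ± 12.2 in CRT34 and 46.3% ± 21.7 in CRT35, where the libraries ran from 21.2% to 59.0% with a median of 58.6%.

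**Figure D3:**
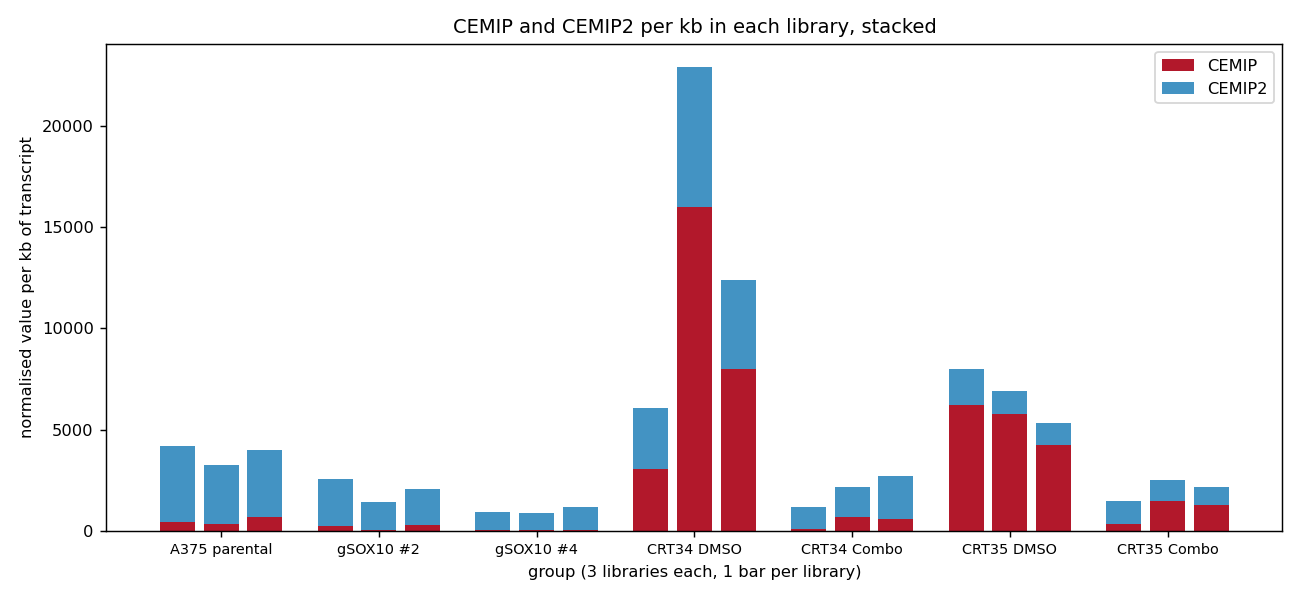
Normalized value per kilobase of canonical transcript of CEMIP and CEMIP2, stacked for each of the 21 libraries from 0. CEMIP makes up the larger part in 5 of the 6 DMSO libraries and in 2 of the 3 CRT35 Combo libraries, and the smaller part in all parental and knockout libraries.

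CD44 (chromosome 11, 35138882 to 35232402, plus strand, 18 exons in the canonical transcript) binds hyaluronan at the cell surface. The files give 1 value per gene, so its splice variants are not separated here. Parental libraries gave 63192, 50964 and 53800.1. Those of gSOX10 #2 held 108104, 107930 and 100485, all above parental cells, and those of gSOX10 #4 held 52332, 65281 and 70459.8, overlapping them. CD44 differed by 0.92 ± 0.16 in gSOX10 #2 (1.89-fold, limma adjusted p = 0.000128) and by 0.16 ± 0.16 in gSOX10 #4 (adjusted p = 0.455). The clones themselves differed by -0.76 ± 0.16 (adjusted p = 0.00183). None of these reached the 2-fold limit. In gSOX10 #2 the change was 1.04 with each library scaled to the same total, 1.13 with quantile normalization and 1.01 without parental replicate 1, past that limit.

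The CRT34 DMSO libraries held CD44 at 93894, 138752 and 126055, and CRT35 DMSO at 116812, 93768 and 91132. CRT34 Combo held 80397, 80919.9 and 67977, and CRT35 Combo 123814, 114513 and 93442. Each of the 12 was above all parental libraries. CD44 rose in CRT34 DMSO by 1.08 ± 0.16 (2.12-fold, adjusted p = 2.21e-05), and the change was 0.96 without CRT34 DMSO replicate 2. The other CRT groups differed from parental cells by 0.45 (CRT34 Combo, adjusted p = 0.024), 0.98 (CRT35 Combo, adjusted p = 4.25e-05) and 0.84 (CRT35 DMSO, adjusted p = 0.000259), all under 2-fold. The CRT35 Combo change was 1.05 with equal totals, 1.09 with quantile normalization, 1.07 without parental replicate 1 and 1.09 without CRT35 Combo replicate 3.
With inhibitors, CD44 differed by -0.63 ± 0.16 in CRT34 (adjusted p = 0.0179), where the Combo and DMSO libraries did not overlap, and by 0.14 ± 0.16 in CRT35 (adjusted p = 0.715), where they did. The difference between these effects was 0.77 ± 0.22, with an adjusted p of 0.372.

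HMMR (chromosome 5, 163460203 to 163491941, plus strand, 18 exons), also called RHAMM, binds hyaluronan and, inside dividing cells, the mitotic spindle. Parental values were 9246, 6682 and 7142, and the other groups had means of 3985 to 5452. All 6 differences from parental cells were negative, and none was a call. CRT34 Combo, at 3244, 3300.1 and 5412, differed by -0.98 ± 0.38 (limma adjusted p = 0.041), just under 2-fold, and by -1.22 (adjusted p = 0.0226) without CRT34 Combo replicate 3. Over the 21 libraries the log2 values of HMMR had a Pearson r of 0.697 with TOP2A to 0.943 with AURKA among 13 other mitosis genes, which share these libraries and their depth.
Of those 13 mitosis genes, 3 fell in gSOX10 #2, 5 in gSOX10 #4, 5 in CRT34 Combo and 5 in CRT34 DMSO, and none rose in any of the 6 comparisons. Of all genes, 7.78%, 8.91%, 8.09% and 7.35% were called lower in that order. Whether the list differs from all genes was not tested. KIF11, a spindle motor, fell by 1.06 ± 0.32 in gSOX10 #2 and 1.12 ± 0.32 in gSOX10 #4 (adjusted p = 0.0128 and 0.0106), though both were lost with quantile normalization, and the first also with equal totals and without parental replicate 1 or gSOX10 #2 replicate 2. AURKB, a mitotic kinase, fell by 1.37 ± 0.46 in gSOX10 #4 (adjusted p = 0.0243), and TOP2A, which untangles DNA, by 1.42 ± 0.36 there (adjusted p = 0.0047). For AURKB that call was lost without parental replicate 1 or gSOX10 #4 replicate 2 or 3. Its calls in gSOX10 #2 and CRT34 Combo were lost in 9 of 28 and 14 of 29 alternatives, among them leaving out any parental replicate. In CRT35 the limma test called 0 of the 13 in either group against parental cells, with 2 at an unadjusted p under 0.05 in Combo and 1 in DMSO. Of all genes, 10.2% in Combo and 7.98% in DMSO were called lower there.

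Set beside all 19290 genes tested, the members' calls were as follows, where a call is a limma adjusted p of at most 0.05 and a change of at least 2-fold. In gSOX10 #2, 3 of 10 members rose (HAS1, HAS2 and HYAL1) and 0 fell, against 15.9% of all genes called higher and 7.78% lower. In gSOX10 #4, 2 rose (HAS1 and HAS2) and 2 fell (CEMIP and CEMIP2), against 11.8% and 8.91%. CRT34 DMSO had 3 higher (HAS2, CEMIP and CD44) and 1 lower (HAS3), against 15.7% and 7.35%. CRT35 DMSO had 2 higher (HAS2 and CEMIP) and 2 lower (HAS3 and CEMIP2), against 15.7% and 7.98%. CRT34 Combo had 1 higher (HYAL1) and 2 lower (HAS3 and CEMIP2), against 19.1% and 8.09%, and CRT35 Combo had 0 higher and the same 2 lower, against 20.1% and 10.2%. HAS1 and HYAL1 entered the test only through libraries of groups where they are high, so their calls in the clones and in CRT34 Combo had to differ and are no support beside the shares of all genes. With 10 members these shares are too coarse to set the members apart from all genes. All 6 comparisons share the parental libraries.

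**Figure D4:**
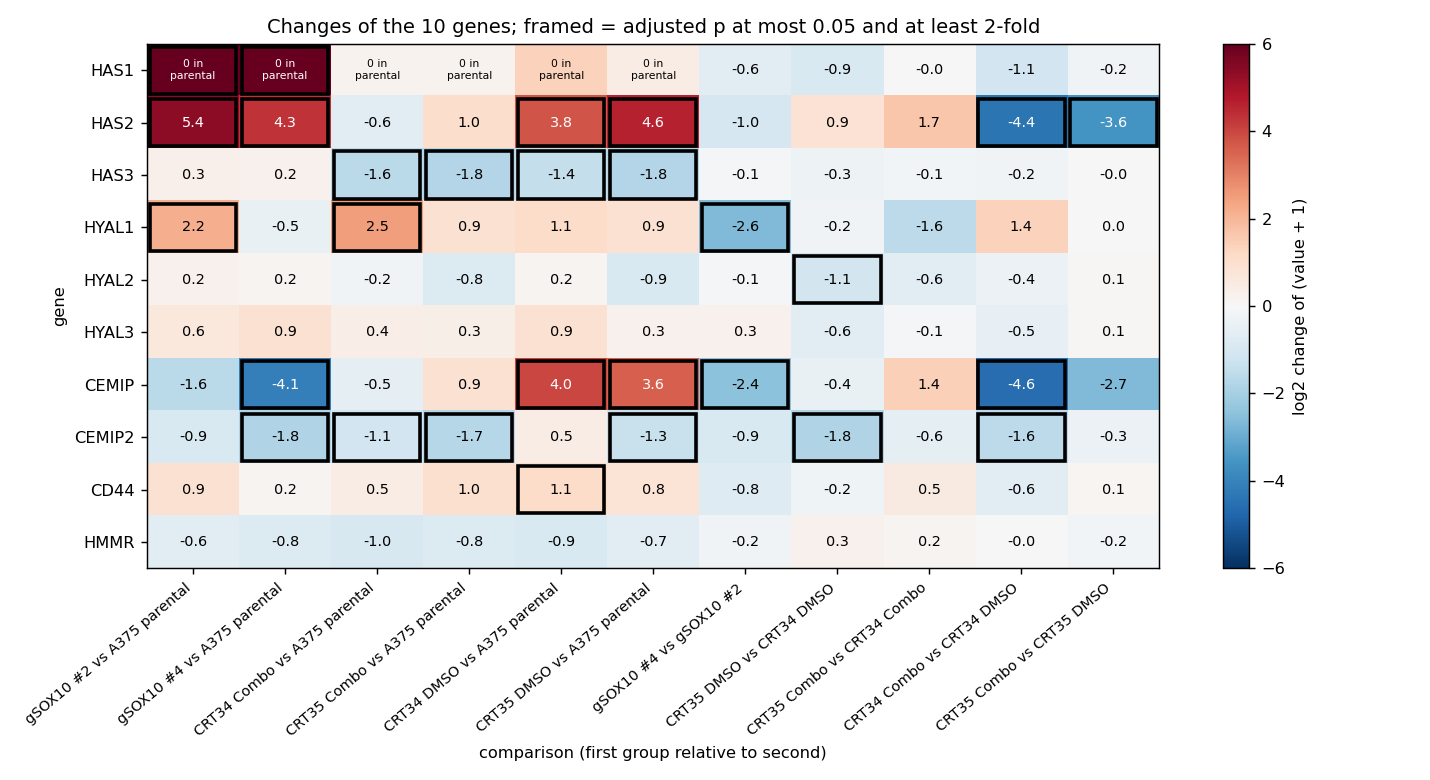
Log2 change of (value + 1) of each member (rows) in 11 comparisons (columns, the first group relative to the second), as colour from blue for lower to red for higher, with the change rounded to 1 decimal in each cell. Frames mark calls, and HAS1 cells against parental cells carry no number because all 3 parental libraries are listed at 0. HAS2 is framed in both clones and both DMSO groups, and HAS3 in the 4 CRT groups.

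Few genes were called between Combo and DMSO. In CRT34, 0 of 10 members rose and 3 fell (HAS2, CEMIP and CEMIP2), against 2.84% of all genes higher and 2.26% lower. In CRT35, 0 rose and 1 fell (HAS2), against 0.487% and 0.648%. No member was called for a difference between the lines in the drug effect (0.0104% of all genes were, in either direction), while 2 members, CEMIP2 and CD44, had an unadjusted p under 0.05, as did 1343 of all genes in the limma fit. The share of all genes depended on 1 library. Without CRT34 Combo replicate 3, 134 genes were called higher and 89 lower for this difference, in place of 0 and 2, and still no member. Combo against DMSO in CRT34 then called 926 genes higher and 623 lower, in place of 547 and 436, with 3 members as before.

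**Figure D5:**
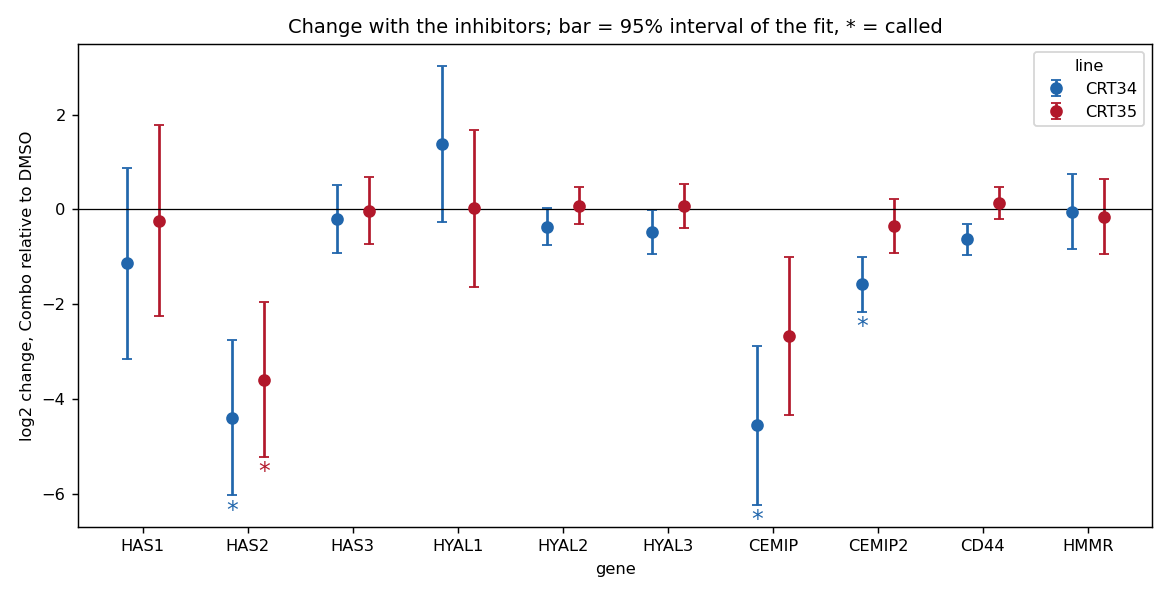
Log2 change with Combo against DMSO for each member in CRT34 and CRT35, with 95% intervals from the limma fit. Asterisks mark calls. HAS2 and CEMIP have the lowest changes in both lines, and CEMIP carries an asterisk in CRT34 alone.

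Between like groups, fewer members were called. In gSOX10 #4 against gSOX10 #2, 0 rose and 2 fell (HYAL1 and CEMIP), against 2.64% and 7.06% of all genes. HYAL1 passed the filter only through libraries of gSOX10 #2 and of the Combo groups, so its call here is no support beside these shares. In CRT35 against CRT34 under DMSO, 0 rose and 2 fell (HYAL2 and CEMIP2), against 3.69% and 4.42%. Under Combo the limma test called 0 members, against 3.17% and 3.74%, while 3 members and 5332 of all genes had an unadjusted p under 0.05. HYAL2 differed there by -0.64 (adjusted p = 0.0281) and CD44 by 0.53 (adjusted p = 0.0297), both under 2-fold. HAS2 differed by 1.69 (adjusted p = 0.167), and without CRT34 Combo replicate 3 it was 2.97 higher in CRT35 (adjusted p = 0.00193). Same-numbered Combo libraries of the lines deviated together, and CEMIP, 1.44 higher in CRT35, had an adjusted p of 0.258 over all 21 libraries. Fitted on the 6 Combo libraries alone, that p was 0.401 without and 0.0329 with the replicate number as a block, while the block over 18 libraries gave 0.127. The call was thus made by 1 of 29 alternatives.

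The precursors of hyaluronan are UDP sugars, and 7 genes that supply them were counted. GFPT2, an entry enzyme of the hexosamine pathway, was at 2888 to 4322 in parental libraries. It rose by 1.45 ± 0.32 in gSOX10 #4, 1.41 ± 0.32 in CRT34 DMSO and 1.73 ± 0.32 in CRT35 DMSO (limma adjusted p = 0.00138, 0.00148 and 0.000216). With inhibitors GFPT2 fell by 2.06 ± 0.32 in CRT34 and 1.71 ± 0.32 in CRT35 (adjusted p = 0.000576 and 0.00867), the first not a call on the CRT34 libraries alone and the second not a call without CRT35 Combo replicate 1. UGDH, which makes UDP-glucuronic acid, rose in all 4 CRT groups by 1.12 to 1.34 and was not called between Combo and DMSO. In CRT34 Combo the rise of UGDH was under 2-fold without replicate 1. GNPNAT1, the next enzyme after GFPT2, fell by 1.08 ± 0.18 in gSOX10 #2 (adjusted p = 0.000138), though by under 2-fold with equal totals or quantile normalization, and UAP1 also fell there. The other members of the list were called in none of the comparisons with parental cells.

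Among further hyaluronidases and lysosomal sugar-cutting enzymes, HEXA, which removes terminal amino sugars in lysosomes, rose in gSOX10 #2 by 1.13 ± 0.15 (limma adjusted p = 1.08e-05). HYAL4 was listed at 0 in all 12 CRT libraries and at 1.60 to 18.6 in the parental ones. Its rise in gSOX10 #4 (1.76, adjusted p = 0.0424) was lost under 12 of the alternatives tried. Of 3 tested receptors, TLR2, an innate immune receptor, was listed at 0 in all 6 knockout libraries and at 15.3 to 31.9 in the parental ones. TLR2 rose in CRT34 Combo and CRT34 DMSO by 2.63 ± 0.42 and 2.69 ± 0.42 (adjusted p = 6.17e-05 and 5.59e-05), and in CRT35 Combo by 1.15 ± 0.42 (adjusted p = 0.0305), the last lost in 5 of 29 alternatives, among them leaving out parental replicate 1 or CRT35 Combo replicate 1. LAYN, a membrane lectin that binds hyaluronan, passed the filter only through CRT libraries, mostly of the Combo groups, and was called higher in both Combo groups from a parental level of 1.02 to 4.37, except with quantile normalization, where neither was a call. TLR4 fell in CRT34 DMSO by 1.12 ± 0.26 (adjusted p = 0.00179), a call that was lost without CRT34 DMSO replicate 1.

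The extracellular proteins that hold hyaluronan were tested as 12 of 17 listed genes. HAPLN1, the link protein that ties hyaluronan to proteoglycans, was at 2906 to 3761 in parental libraries, 132 to 292 in gSOX10 #2 and 36.6 to 117 in gSOX10 #4, and at most 93.5 in any CRT library. It fell in all 6 comparisons, by 4.01 ± 0.82 and 5.69 ± 0.82 in the clones (limma adjusted p = 0.000656 and 2.7e-05). VCAN, the proteoglycan versican, rose in all 6, from a parental mean of 1198 ± 147 to 24688 ± 3611 in gSOX10 #2 and 12477 ± 7632 in gSOX10 #4. TNFAIP6, which crosslinks hyaluronan in inflamed tissue, rose by 5.02 ± 1.18 in CRT35 Combo and 4.47 ± 1.18 in CRT35 DMSO (adjusted p = 0.00154 and 0.00485). ITIH3, a heavy chain that is bound to hyaluronan, rose by 4.22 ± 0.82 in CRT34 Combo and 5.26 ± 0.82 in CRT34 DMSO (adjusted p = 0.000387 and 5.03e-05), the groups through which alone it passed the filter. Over the list, 2 rose and 3 fell in each clone, 5 rose and 2 fell in each Combo group, 4 rose and 3 fell in CRT34 DMSO, and 4 rose and 2 fell in CRT35 DMSO. Over these 6 comparisons, 11.8% to 20.1% of all genes were called higher and 7.35% to 10.2% lower. Whether the list differs from all genes was not tested. ACAN was lower in gSOX10 #4 and in every CRT group, and ITIH5 was lower in both clones and in CRT34 DMSO. BCAN was lower in gSOX10 #2. The other genes called higher were ITIH4 in gSOX10 #2 and the 4 CRT groups, HAPLN4 in both CRT34 groups, through which alone it passed the filter, and in CRT35 Combo, PTX3 in both Combo groups and CRT35 DMSO, and AMBP in gSOX10 #4.

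Among 12 partners, ligands, sheddases and splicing factors of CD44, 3 rose and 1 fell in gSOX10 #2, 2 rose and 1 fell in gSOX10 #4, and 3 to 5 rose in the CRT groups. Of all genes, 15.9% were called higher and 7.78% lower in gSOX10 #2, and 11.8% and 8.91% in gSOX10 #4. In the CRT groups 15.7% to 20.1% were called higher. Whether the list differs from all genes was not tested. SRGN, a secreted proteoglycan that CD44 binds, rose in all 6 comparisons, from 111 ± 48.4 in parental cells to 1139 ± 29.0 in gSOX10 #2 and 19088 ± 4281 in CRT35 Combo. MMP14, a membrane protease that sheds CD44, rose in all 6, by 2.24 ± 0.23 in each clone (limma adjusted p = 4.01e-07 and 4.38e-07). In CRT34 Combo the rise of MMP14 was under 2-fold without CRT34 Combo replicate 3. MMP14 fell with inhibitors in CRT34 by 1.64 ± 0.23 (adjusted p = 0.000252), but not on the CRT34 libraries alone. LGALS9, a lectin that binds CD44, rose in the 4 CRT groups by 2.06 to 4.62, the lowest of these (CRT34 DMSO) not a call without parental replicate 3. ESRP2, an epithelial splicing factor, fell in both clones, EZR fell in CRT34 DMSO and ESRP1 fell in CRT35 DMSO. Of 10 housekeeping genes, B2M was called higher in 5 of the 6 comparisons, in CRT34 Combo not without its replicate 3, and none was called lower. Of all genes, 11.8% to 20.1% were called higher and 7.35% to 10.2% lower in these comparisons. The median log2 change of the 10 was negative in all 6, from -0.156 in CRT35 DMSO to -0.467 in CRT34 Combo. Over all genes the median was 0 to 0.0516. The part of this shift in the members' changes was not tested.

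The genes whose log2 values were most like a member's over the 21 libraries were picked by Pearson r, as a description. For HAS2 they were LIF (0.894), SYNJ2 (0.881) and LAMB3 (0.872). Those for HAS3 were ENTPD6 (0.922), AEN (0.921) and RAP1GAP (0.921). CEMIP was most like NID1 (0.943), LRRC8C (0.92) and CCDC117 (0.91). For CD44 they were MFSD11 (0.912), FICD (0.904) and LAMB1 (0.893). Among the members, r was 0.0398 between HAS2 and CEMIP and 0.315 between CD44 and HAS2, although HAS2 and CEMIP were both high in the DMSO groups. The points share their libraries, and groups of 3 are not independent.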

How the data were processed

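RNA from 21 libraries was sequenced by the authors with 101 bp paired reads, aligned with STAR 2.6.1a to GRCh38 and quantified with RSEM, and Picard and DESeq2 are named in the submitters' processing notes. The deposited signal values per gene were already divided by size factors: each library had a median ratio of 1.01 to the geometric means, and 18.0% to 63.7% of values under 10 steps lay within 0.05 of a whole multiple, so reads were not recovered and no count model was used. The values are therefore not counts, and no interval from counting was set. Identifiers were matched to symbols for 58472 of 58870 genes. Genes with at least 10 in 3 libraries (19290) were fitted with limma 3.58.1 in R 4.3.3 on log2(value + 1), with 1 mean per group over all 21 libraries (14 residual and 4.7 prior degrees of freedom), a mean-variance trend and Benjamini-Hochberg adjustment over all genes tested. Folds are on that scale and understate changes of low genes. A call needed an adjusted p of at most 0.05 and a 2-fold change, the study's thresholds. The script was tested on simulated data. There were 12 comparisons. Members and lists were chosen with earlier results of these data known. Named from each list were the up to 3 genes with the largest change among those called against parental cells, and any called the other way. Replicate numbers pair samples only between CRT34 Combo and CRT35 Combo, where same-numbered libraries deviated together (r = 0.218, 0.253 and 0.207), as a check of the data and not a label. The gSOX10 #2 libraries are numbered differently. Proteins and splice variants were not analysed here. A listed gene is not reported here.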

Additional observations from a re-analysis of the deposited data

How the results depend on the processing

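Across 66 reported member changes recomputed 1907 times, 1828 kept direction and call, 35 lost the call, 40 gained it and 4 changed sign; of 54 other member changes, 29 changed sign somewhere and 2 were called somewhere. Of 347 recomputed counts of called members, 317 were within 1.5 times. Calls of other named genes kept in 3056 of 3180 recomputed values, with 0 of opposite sign. The count for gSOX10 #4 against gSOX10 #2 went from 2 to 1 without the filter, with a pseudocount of 10 or on the compared groups only, to 0 with quantile normalization and to 4 by adjusted p alone. The count for Combo against DMSO in CRT34 went from 3 to 0 on the compared groups only. Over all genes, calls there went from 547 to 7 higher and from 436 to 29 lower. The cause was not tested. For CRT34 Combo against parental cells the count of members went from 3 to 1 with quantile normalization. It was 5 by adjusted p alone, or without CRT34 Combo replicate 3 and CRT35 DMSO replicate 1, an alternative chosen after seeing the data. Adjusted p alone gave 6 in place of 3 in gSOX10 #2, 4 in place of 2 in CRT35 Combo, and 2 in place of 0 for CRT35 Combo against CRT34 Combo. That last count was 1 without both libraries, and 1 with the replicate block on the Combo libraries alone; the difference in drug effect went from 0 to 1 without both libraries. The replicate block over 18 libraries changed none of the 10 counts it could give, with 1 call exchanged for another in CRT35 (HAS2 for CEMIP).

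Leaving out 1 library at a time gave counts of 1 to 5 for CRT34 Combo and 2 to 5 for CRT35 Combo against parental cells, 0 to 3 between the clones, 1 to 2 between the lines under DMSO, 0 to 1 under Combo and 0 to 2 for the inhibitors in CRT35. Uncalled changes that crossed zero were HAS2 in CRT34 Combo against parental cells (-1.93 to 0.37), CEMIP there (-1.09 to 0.47), CEMIP in CRT35 against CRT34 DMSO (-1.08 to 0.12) and the HAS2 difference in drug effect (-0.20 to 2.09). The cause was not tested. Quantile normalization shifted the median of all genes by -0.115 to -0.181 in 5 comparisons with parental cells and brought the part of all calls that were higher, 66.3% to 70.2% in these comparisons, down to 50.9% to 54.1%, while between the clones it rose from 27.2% to 40.8%. Equal totals shifted it by 0.117 in gSOX10 #2 and 0.102 in CRT34 Combo. Depth limits HAS1, listed at 0 in 11 of 21 libraries, and HYAL1, whose parental values are close to the step of a single read.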
